A study of Mus musculus with 6 samples.

Results

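Resistin-like molecules (RELMs) and chitinase-like proteins are secreted proteins, and the genes described here are Retnla, Retnlg, Chil1, Chil3, Chil4 and Chia1. They were taken from the deposited table of gene counts by symbol, and they were chosen with results of these data known, Retnla because it had been seen to be strongly higher after treatment. The table held 5 of the 6 genes among its 16254 genes; Chia1, acidic mammalian chitinase, was not analysed here. The cells were eosinophils grown from the bone marrow of young C57BL/6 mice with FLT3 ligand and stem cell factor and then with IL-5. For 24 h they received either extracellular vesicles (EVs) of activated TH2 cells, isolated by size exclusion chromatography and ultrafiltration and given at 5e9 EVs per ml (EV-treated, n = 3), or medium that had not been exposed to T cells and had gone through the same isolation (sham-treated, n = 3). The samples are labelled as biological replicates, all of the same genotype, and each library is a bulk poly(A) RNA library of a whole culture. The comparison asks which transcripts of EV-treated eosinophils differed from those of sham-treated eosinophils.

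RELM proteins are cysteine-rich cytokine-like proteins named after resistin, and chitinase-like proteins keep the fold of chitinases, in most members without the enzyme activity. In mice Retnla (RELMα, also called FIZZ1) and Chil3 (Ym1) are classic products of macrophages exposed to IL-4 or IL-13, which act through the IL-4 receptor α chain and the transcription factor STAT6, and both proteins accumulate in the airways during allergic inflammation. Retnlg (RELMγ) is best known from bone marrow and neutrophils, Chil1 (BRP-39, the mouse counterpart of human YKL-40) is made by macrophages, neutrophils and epithelium, and Chil4 (Ym2) is the near twin of Chil3.

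The sequences upstream of the genes are shown first because genes that lie side by side and resemble each other in sequence had different levels. In GENCODE vM21 on GRCm38, Retnla covers chr16:48842551-48844461 and Retnlg chr16:48872621-48874496, both on the plus strand with 4 exons in the longest coding transcript and 28.2 kb apart. Chil3 covers chr3:106147554-106167564 and Chil4 chr3:106201490-106219507, both on the minus strand with 11 exons and 33.9 kb apart. Chil1 covers chr1:134182176-134190181 on the plus strand with 10 exons. No annotated gene overlaps any of the 5. The stretches below come from the RefSeq promoter windows of GRCm38.p6, which run from 250 bases before to 50 bases after the RefSeq start of a gene, and end at the last base before both the RefSeq and the GENCODE start. They are written 5′ to 3′ on the strand of the gene, and capitals mark matches to TTCNNNNGAA or TTCNNNGAA, the palindromic letters that STAT proteins, STAT6 in the first case, are known to prefer.
Retnla, chr16:48842359-48842550, plus strand: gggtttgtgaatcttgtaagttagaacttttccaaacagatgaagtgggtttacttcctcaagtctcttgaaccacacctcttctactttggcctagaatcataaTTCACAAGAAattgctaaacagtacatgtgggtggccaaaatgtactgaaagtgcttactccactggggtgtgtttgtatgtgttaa
Retnlg, chr16:48872358-48872607, plus strand: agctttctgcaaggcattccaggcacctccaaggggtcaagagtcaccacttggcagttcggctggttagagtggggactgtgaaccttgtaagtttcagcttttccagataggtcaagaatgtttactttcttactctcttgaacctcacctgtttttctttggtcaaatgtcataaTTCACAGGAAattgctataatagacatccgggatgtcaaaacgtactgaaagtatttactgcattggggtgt
Chil1, chr1:134181906-134182155, plus strand: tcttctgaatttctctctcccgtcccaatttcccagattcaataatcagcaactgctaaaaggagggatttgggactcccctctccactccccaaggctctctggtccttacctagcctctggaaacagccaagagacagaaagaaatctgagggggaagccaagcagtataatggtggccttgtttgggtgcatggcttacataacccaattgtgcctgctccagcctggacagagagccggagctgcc
Chil3, chr3:106167565-106167814, minus strand: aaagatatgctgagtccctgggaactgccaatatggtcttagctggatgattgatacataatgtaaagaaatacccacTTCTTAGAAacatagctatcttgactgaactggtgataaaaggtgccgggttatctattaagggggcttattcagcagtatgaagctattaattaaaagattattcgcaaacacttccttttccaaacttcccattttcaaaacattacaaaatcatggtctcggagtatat

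Retnla and Retnlg each held 1 match to TTCNNNNGAA, 145 to 136 bases before the RefSeq start of Retnla and 72 to 63 bases before that of Retnlg. Of the 32851 RefSeq promoter windows of this length, 6.95% held such a match on either strand. The RefSeq and GENCODE starts of Retnla and Retnlg differ, so the distances of their matches depend on the start used. The GENCODE start lies upstream of the RefSeq start for Retnla and downstream of it for Retnlg. Counted from the GENCODE starts, the 2 matches lie at nearly equal distances. The difference between 145 and 72 bases thus comes from the RefSeq starts. The 30-base windows around the 2 matches differed at 6 positions, 1 of them inside the match, where the substitution from Retnla to Retnlg was A7G, counted from 1 at the 5′ end of the match.
Retnla window: agaatcataaTTCACAAGAAattgctaaac
Retnlg window: aatgtcataaTTCACAGGAAattgctataa

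Chil3 and Chil4 held the shorter letters TTCNNNGAA as TTCTTAGAA, 172 to 164 and 200 to 192 bases before their RefSeq starts. Of all windows, 8.30% held a match to these letters. Chil1 held neither. The RefSeq and GENCODE starts of Chil3 coincide, whereas the GENCODE start of Chil4 lies upstream of its RefSeq start. Counted from the GENCODE starts, the matches of Chil3 and Chil4 lie at the same distance. The C/EBP-type letters TTNNGNAA were found 3 times each in the windows of Retnla, Chil3 and Chil4 and 1 time each in those of Retnlg and Chil1, against 40.7% of all windows with at least 1 match; none overlapped a marked match. In alignments of the full windows Chil3 and Chil4 were 92.6% identical across 271 aligned bases and Retnla and Retnlg 79.1% across 225. Chil3 and Chil1 were 56.3% identical. These alignments had 58, 150 and 60 gapped positions, which the identities do not count. These matches describe letters in a window and are not evidence of binding in these cells.

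The libraries held between 23697620 and 37874426 estimated counts each, with 32260914 or more in every EV-treated library. Levels are given as estimated counts and as CPM, counts relative to a library size scaled by TMM, which evens out differences in library composition. Of the 16254 genes, 13498 passed the filter on low counts, and among these the median log2 fold change between EV- and sham-treated eosinophils was -0.01. A gene was called where the edgeR quasi-likelihood test gave an adjusted p under 0.01 and the fold change was at least 1 on the log2 scale in either direction, and 3.1% of the genes tested were called higher and 6.35% lower. The defining markers of eosinophils were abundant in every library. All 10 were in the table, they summed to 28690 to 36270 CPM in sham-treated and 40520 to 45650 CPM in EV-treated libraries, and their median log2 fold change was 0.67. Of the 10, 7 had a higher level at an edgeR adjusted p under 0.01, and 1 of these, the eotaxin receptor gene Ccr3, also passed the fold limit (log2 fold change 1.13, edgeR adjusted p = 7.64e-07), which it missed under scaling by library totals (0.98).

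Of the 5 genes, 4 passed the filter. In 2 of them, Retnla and Chil3, every EV-treated library lay above every sham-treated library, in 1, Chil1, every EV-treated library lay below, and in Retnlg the groups overlapped. Over all genes tested, 24.8% had every EV-treated library above and 24.7% every EV-treated library below the sham-treated libraries. Because the genes were chosen from this comparison, their values are given as a description without a p. In bulk libraries fewer cells that express a gene and less RNA per cell cannot be told apart.

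Retnla had 36, 7 and 12 estimated counts in the sham-treated libraries 1, 2 and 3, and 5134, 5321 and 4358 in the EV-treated libraries 1, 2 and 3. In CPM these were 1.05, 0.278 and 0.473 against 166.2, 147.8 and 122.9. Every EV-treated library was far above every sham-treated one, with the lowest EV-treated library 116.9-fold over the highest sham-treated library. The means were 0.601 ± 0.402 CPM (SD, n = 3) and 145.7 ± 21.7 CPM (SD, n = 3), a ratio of 242.5, and the fitted log2 fold change was 7.81 (SE 0.25). By fold change it ranked 14 from the top of the 13498 genes tested. The sham-treated values rest on few reads: the 95% Poisson interval of the lowest, 7 counts, was 2.8 to 14.4, and that of the highest, 36 counts, was 25.2 to 49.8, intervals that cover counting error only. The first sham-treated library was the high one, and without it the log2 fold change was 8.59. Ranked among all genes of a library by CPM, Retnla stood between 12056 and 13591 in the sham-treated libraries and between 1357 and 1882 in the EV-treated libraries.

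Retnlg, the neighbour of Retnla, had 2652, 1680 and 1461 counts in the sham-treated libraries and 1800, 1720 and 1929 in the EV-treated libraries, or 77.5, 66.7 and 57.5 CPM against 58.3, 47.8 and 54.4 CPM. The lowest sham-treated library lay inside the range of the EV-treated libraries. The means were 67.2 ± 9.97 CPM and 53.5 ± 5.31 CPM (SD, n = 3 each), and the log2 fold change was -0.33 (SE 0.11). The transcripts of Retnla and Retnlg were 84.5% identical over 587 aligned bases, but 5.45% of the 31-base words of the Retnla transcript occur in another gene, in each case Retnlg. The other tested genes within 100 kb of Retnla, Trat1 and Dzip3, had log2 fold changes of -0.28 and 0.03 and were not called (edgeR adjusted p = 0.48 and 0.9).

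**Figure D1:**
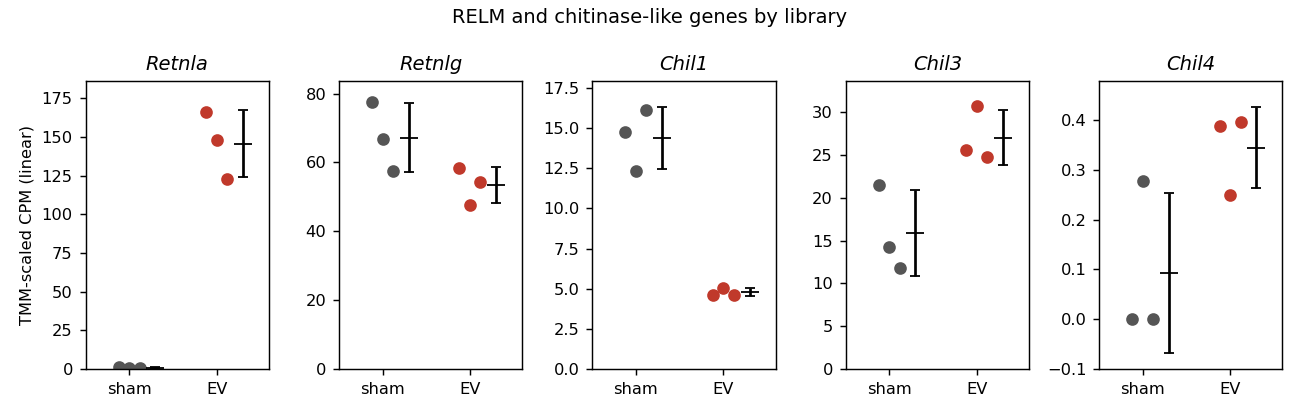
TMM-scaled CPM (linear axes, one scale per gene) of the 5 genes in the 3 sham-treated (grey) and 3 EV-treated (red) libraries, each point a library, with the mean and SD as a bar. Retnla lies at 0.278 to 1.05 CPM in sham-treated and 122.9 to 166.2 CPM in EV-treated libraries, Chil1 is lower and Chil3 higher in every EV-treated library, and the groups overlap for Retnlg and Chil4.

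Among the chitinase-like genes, Chil3 had 736, 360 and 301 counts in the sham-treated and 789, 1107 and 879 in the EV-treated libraries, or 21.5, 14.3 and 11.8 CPM against 25.6, 30.8 and 24.8 CPM. The EV-treated libraries were all higher, but the gap was narrow, since the lowest of them was 1.15-fold over the highest sham-treated library. The means were 15.9 ± 5.01 CPM and 27.0 ± 3.24 CPM (SD, n = 3 each), 1.70-fold apart, with a log2 fold change of 0.76 (SE 0.20). That change did not reach the fold used for a call.

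Chil4, which encodes Ym2, had 0, 7 and 0 counts in the sham-treated and 12, 9 and 14 counts in the EV-treated libraries, and did not pass the filter. The 95% Poisson interval of a count of 0 reached up to 3.7 counts, for counting error only. The groups overlapped in CPM (0, 0.278 and 0 against 0.389, 0.25 and 0.395). Of the counts of Chil3 and Chil4 together, Chil4 held 0%, 1.91% and 0% in the sham-treated libraries and 1.498%, 0.806% and 1.57% in the EV-treated libraries. The groups overlapped in this share too, with the highest value in a sham-treated library. The transcripts of both genes were 94.4% identical over 1538 aligned bases, and 31.15% of the 31-base words of Chil3 are also found in Chil4. The split of reads between them is therefore uncertain. With Chia1, Chil5 and Gm6522 counted too, 44.8% of the words of Chil3 are shared. The sum of Chil3 and Chil4 gave a log2 fold change of 0.77 (SE 0.20), close to that of Chil3 alone. It does not cover words shared with the other genes.

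Chil1 went the other way. It had 506, 310 and 409 counts in the sham-treated and 143, 182 and 164 in the EV-treated libraries, or 14.8, 12.3 and 16.1 CPM against 4.63, 5.06 and 4.63 CPM. The lowest sham-treated library was 2.44-fold over the highest EV-treated library, and the EV-treated libraries lay close together, with a coefficient of variation of 5.17%. The means were 14.4 ± 1.92 CPM and 4.77 ± 0.247 CPM (SD, n = 3 each), 3.02-fold higher in sham-treated eosinophils, and the log2 fold change was -1.59 (SE 0.16). No 31-base word of Chil1 is shared with another gene.

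**Figure D2:**
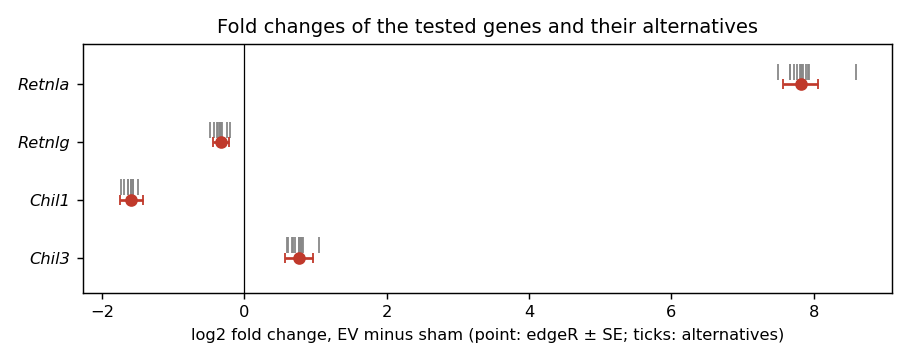
Log2 fold change (EV-treated minus sham-treated) of the 4 genes that passed the filter, with the edgeR estimate and its SE as a red point and bar and the values under other scalings, tests and left-out libraries as grey ticks. No tick lies on the other side of 0 from its point, and the tick farthest from its point is that of Retnla at 8.59.

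Levels of different genes were compared per kb of transcript, using the longest coding transcript (593 to 1839 bases). In sham-treated eosinophils Retnlg was the most abundant at 113.4 ± 16.8 CPM per kb, followed by Chil3 at 10.3 ± 3.26 and Chil1 at 7.83 ± 1.05, whose ranges over libraries overlapped (7.70 to 13.97 and 6.70 to 8.76 CPM per kb). Retnla came next at 1.00 ± 0.672 and Chil4 last at 0.0602 ± 0.104 CPM per kb. In EV-treated eosinophils the order was Retnla at 243.2 ± 36.3, Retnlg at 90.2 ± 8.96, Chil3 at 17.6 ± 2.11, Chil1 at 2.59 ± 0.134 and Chil4 at 0.224 ± 0.0532 CPM per kb (SD, n = 3 throughout), and no range overlapped that of the next gene. Retnla thus passed all the others, and Chil1 and Chil3, which overlapped in sham-treated eosinophils, were separated.

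As a share of the 5 genes summed per kb, Retnla made up 1.14%, 0.359% and 0.690% in the sham-treated libraries and 70.2%, 70.5% and 65.0% in the EV-treated libraries. Retnlg held between 84.6% and 87.1% in sham-treated libraries and between 23.0% and 29.05% in EV-treated libraries. The sum of the 5 genes was between 114.3 and 154.4 CPM per kb in sham-treated and between 315.9 and 395.2 CPM per kb in EV-treated libraries. Chil3 went from between 6.74% and 9.05% to between 4.20% and 5.71% although its own level was higher.

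**Figure D3:**
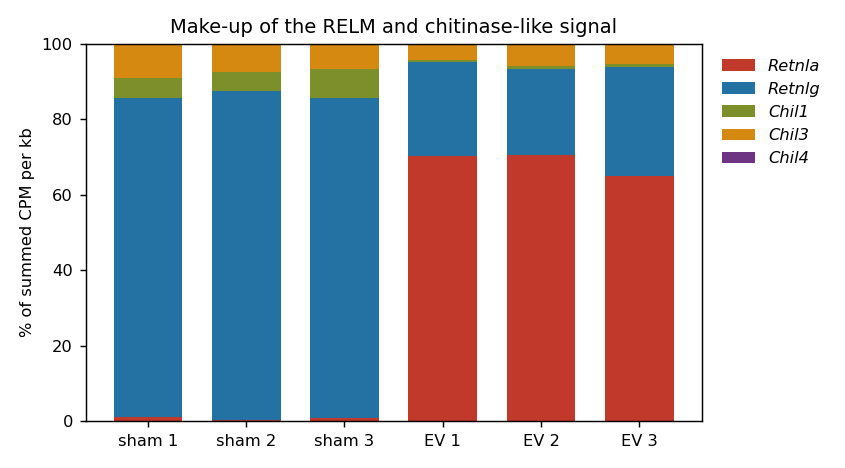
Share of each gene in the summed CPM per kb of the 5 genes (vertical axis, percent) in each of the 6 libraries (bars). Retnlg fills 84.6% to 87.1% of the sham-treated bars, and Retnla fills 65.0% to 70.5% of the EV-treated bars.

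The 4 tested genes differed in which other genes they most resembled across the 6 libraries, by the distance between centred profiles of log2 (normalized count + 1). The nearest to Retnla were Ccl24, the gene of the chemokine eotaxin-2 (distance 1.67), Car4, a membrane-bound carbonic anhydrase (1.75), and Aifm3 (1.90). Car4 had 11, 7 and 8 counts in sham-treated and 1445, 1460 and 1394 counts in EV-treated libraries, a log2 fold change of 7.09 (SE 0.17), whereas Ccl24 and Aifm3 were at 0 in all 3 sham-treated libraries. Their mean levels after EV treatment were set against 0.119 CPM, the highest level that 3 counts give in a sham-treated library. They were 43.5-fold higher for Ccl24 and 34.5-fold higher for Aifm3. The 95% Poisson interval of a count of 0 reaches 3.7 counts, so these folds are not lower bounds at that limit.

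Nearest to Chil1 were Mmp27, a matrix metalloproteinase (0.196), the septin gene Septin8 (0.22) and Chdh, choline dehydrogenase (0.276), with log2 fold changes of -1.57, -1.57 and -1.59. Nearest to Chil3 were Lrrn4 (0.229), Glb1l2 (0.24) and Fam43a (0.281), with log2 fold changes of 0.88, 0.73 and 0.68. Cep128 (0.108), Kcnq5 (0.138) and Atp10a (0.138) were nearest to Retnlg, with log2 fold changes of -0.26, -0.34 and -0.33. The 6 libraries fall into 2 groups, so that genes with a like change between groups are near each other by this measure.

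The rest of the family was scarce or differed little. Of 8 further resistin and chitinase family genes, 7 were in the table and 4 were tested, and edgeR called 0 higher and 0 lower, with a median log2 fold change of -0.05. None of the 4 had an unadjusted edgeR p under 0.05, and DESeq2 and limma called 0 as well. Chid1, a lysosomal chitinase domain protein, had a log2 fold change of -0.09, Ctbs, the lysosomal di-N-acetylchitobiase, -0.00, and Ovgp1, oviductal glycoprotein, -0.12. Chil5 had 20, 11 and 20 counts in sham-treated and 54, 38 and 38 counts in EV-treated libraries, a log2 fold change of 1.09 (SE 0.54) that was not called (edgeR adjusted p = 0.15). Retn, which encodes resistin, Retnlb and Chil6 did not pass the filter. Retnlb, 23.7 kb from Retnla on the same strand, had 0, 0 and 5 counts in sham-treated and 4, 5 and 0 counts in EV-treated libraries.

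The genes that accompany Retnla and Chil3 in type 2 responses were divided. Of 28 genes named for such responses, 23 were in the table and 22 were tested, of which 7 rose, 6 fell and 9 were not called, with a median log2 fold change of 0.53 beside -0.01 over all genes tested. Arg1, the arginine-degrading enzyme that is measured beside Retnla and Chil3 in alternatively activated macrophages, had 0, 11 and 18 counts in sham-treated and 1055, 1707 and 1603 counts in EV-treated libraries (log2 fold change 6.91, SE 0.46, edgeR adjusted p = 2.61e-06). Mgl2, a galactose-binding C-type lectin, had 0, 0 and 1 counts against 45, 59 and 71 counts (edgeR adjusted p = 0.000303). Ccl24, with no sham-treated count, had 131, 240 and 165 counts in the EV-treated libraries (edgeR adjusted p = 1.74e-05).

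The remaining called genes of this list fell into a higher and a lower group. Cdh1, which encodes E-cadherin, Egr2, a transcription factor of alternative activation, Il1rl1, the IL-33 receptor, and Il1rn, the IL-1 receptor antagonist, rose with log2 fold changes of 3.84, 1.51, 2.12 and 1.49. Stab1 and Msr1, scavenger receptors, Folr2, a folate receptor, Igf1, a growth factor, Fn1, fibronectin, and Ccl17, a chemokine that attracts TH2 cells, fell with log2 fold changes of -3.91, -2.12, -3.19, -2.62, -2.25 and -1.37. The call of Fn1 was lost when sham-treated library 1 or 3 or EV-treated library 2 or 3 was left out (edgeR adjusted p from 0.0152 to 0.0215). Mrc1, the mannose receptor of the same macrophage program, differed by 0.34 (edgeR adjusted p = 0.332) and was not called.

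Of 22 genes of IL-4 and IL-13 signaling and of known Retnla regulators, all tested, 6 rose, 1 fell and 15 were not called, with a median log2 fold change of 0.28. Il4ra, the receptor chain shared by IL-4 and IL-13, had 64.5, 76.6 and 70.3 CPM in sham-treated and 160.1, 165.3 and 166.6 CPM in EV-treated libraries, without overlap (log2 fold change 1.22, SE 0.07, edgeR adjusted p = 1.33e-06). Stat6 mRNA, by contrast, had 343.4, 331.2 and 321.2 CPM against 308.0, 312.8 and 322.6 CPM, with overlapping groups (log2 fold change -0.08, edgeR adjusted p = 0.3). Il13ra1, the second chain of the IL-13 receptor, was scarce, at 3.25 ± 1.00 CPM in sham-treated and 1.56 ± 0.393 CPM in EV-treated libraries (SD, n = 3 each), and was not called (log2 fold change -1.07, edgeR adjusted p = 0.0444).

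The feedback inhibitors Socs1 and Cish rose, by 5.10 and 4.37 on the log2 scale (edgeR adjusted p = 5.75e-08 and 3.64e-10). Socs1 went from 4.0, 5.64 and 2.68 CPM to 129.7, 140.8 and 151.1 CPM. Il13 itself had 4, 0 and 0 counts in sham-treated and 36, 34 and 42 counts in EV-treated libraries (edgeR adjusted p = 0.00559), a call that was lost when any library other than sham-treated library 1 was left out (edgeR adjusted p from 0.0135 to 0.0367). Il4 had means of 14.2 CPM in sham-treated and 27.1 CPM in EV-treated libraries, without overlap. Its log2 fold change of 0.94 was under the fold limit (edgeR adjusted p = 0.000213). Jak2, a kinase of cytokine receptors, and Irf4, a transcription factor of type 2 programs, also rose (log2 fold changes 1.41 and 2.26).

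The C/EBP factors, which are known to act at the Retnla promoter, did not move together. Cebpb had 297.8, 260.8 and 262.0 CPM in sham-treated and 464.7, 468.5 and 494.7 CPM in EV-treated libraries, with no overlap (log2 fold change 0.80, edgeR adjusted p = 9.77e-06), but did not reach the fold limit. Cebpa was the gene that fell (log2 fold change -2.29, edgeR adjusted p = 1.49e-06). Cebpd and Cebpe had log2 fold changes of -0.88 and 0.28, under the fold limit (edgeR adjusted p = 0.00022 and 0.0278).

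Of 8 receptors and binding partners of RELM and chitinase-like proteins, 7 were tested with edgeR, of which 2 rose and 0 fell, with a median log2 fold change of 0.53 (1 was lower at an unadjusted p under 0.05, and DESeq2 and limma called 0 lower). Tlr4, proposed as a receptor for resistin, went from 15.1, 21.4 and 27.3 CPM to 101.1, 103.3 and 105.4 CPM (log2 fold change 2.28, edgeR adjusted p = 4.85e-06). Ptgdr2, the prostaglandin D2 receptor CRTH2, to which Chil1 protein has been reported to bind, went from 3.13, 1.95 and 1.73 CPM to 11.0, 9.17 and 9.90 CPM (log2 fold change 2.13, edgeR adjusted p = 9.59e-05). Cap1, another proposed resistin receptor, and Btk, a kinase reported to bind RELM proteins, had log2 fold changes of 0.53 and 0.76. Both were under the fold limit (edgeR adjusted p = 1.74e-05 and 5.99e-06). Lgals3, galectin-3, was lower in every EV-treated library but also under the fold limit (log2 fold change -0.48, edgeR adjusted p = 0.00625). Cd44 and Tmem219 had log2 fold changes of 0.02 and -0.07, with overlapping groups.

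**Figure D4:**
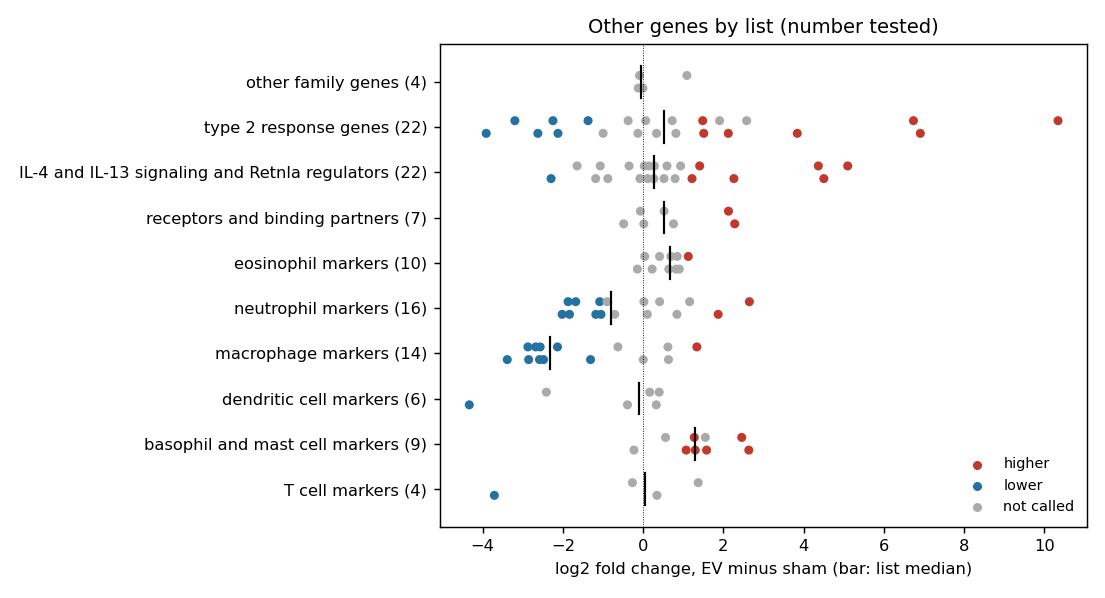
Log2 fold change (horizontal axis, EV-treated minus sham-treated) of every tested gene of 10 lists, with genes called higher in red, called lower in blue and not called in grey, and the median of each list as a bar. Type 2 response genes lie on both sides (7 higher, 6 lower), macrophage markers mostly lie below 0 (9 of 14 lower), and the fitted value of Ccl24 at the far right depends on a prior count because its sham-treated libraries were at 0.

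Markers of other cells that a bone marrow culture can hold were measured in the same libraries. Of 14 macrophage markers, 9 fell and 1 rose (median log2 fold change -2.31), with Cd14, Marco and Mertk at -3.38, -2.87 and -2.85; Marco kept its call only without EV-treated library 2 among the left-out libraries. Their summed level overlapped between groups, at 1834 to 2341 CPM in sham-treated and 2185 to 2370 CPM in EV-treated libraries, since the list also holds Adgre1 and Ly6c2, which made up most of the EV-treated sum (1062 and 895.9 CPM). Retnla, Arg1, Mgl2 and Ccl24 were thus higher in the libraries in which most macrophage markers were lower, and Chil1, Stab1, Msr1, Folr2 and Cebpa were lower in them. The part of macrophages in these values was not tested.

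Of 16 tested neutrophil markers, 7 fell and 2 rose (median log2 fold change -0.80). Their sums overlapped, at 1665 to 1972 CPM in sham-treated and 1634 to 1932 CPM in EV-treated libraries. Padi4, which was not called, was the largest part of these sums. Its means were 971.7 CPM in sham-treated and 1046 CPM in EV-treated libraries, beside 1844 and 1773 CPM for the list. Camp, a granule protein gene, fell by 2.02 on the log2 scale, while Ly6g and Cxcr2 rose by 2.65 and 1.87. Of the genes that neutrophils are known to make, Chil1 was lower in the same EV-treated libraries and Retnlg overlapped. The part of neutrophils in their levels was not tested.

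Of 9 basophil and mast cell markers tested with edgeR, 6 rose and 0 fell (median log2 fold change 1.30; 0 were lower at an unadjusted p under 0.05 or by DESeq2 or limma), and the summed level of the 10 in the table went from between 248.6 and 308.0 CPM to between 554.8 and 652.1 CPM, without overlap. Ms4a2, Mcpt8 and Prss34 rose by 2.64, 2.46 and 1.58 on the log2 scale, and the call of Mcpt8 was lost without sham-treated library 3 (edgeR adjusted p = 0.013). Basophils are a known source of IL-13, and their part in the Il13 counts was not tested.

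Of 6 tested dendritic cell markers, 1 fell, Cd207 (log2 fold change -4.33, edgeR adjusted p = 0.00733), and 0 rose (0 also at an unadjusted p under 0.05 and by DESeq2 and limma). The call of Cd207 was lost without the filter on low counts (edgeR adjusted p = 0.013) and when any library other than sham-treated library 1 was left out (edgeR adjusted p from 0.0211 to 0.0443). The list summed to 161.1 to 183.3 CPM in sham-treated and 168.9 to 206.7 CPM in EV-treated libraries, almost all of it Itgax, with means of 164.8 and 184.9 CPM. T cell markers were scarce: the 9 in the table summed to 12.6 to 30.5 CPM in sham-treated and 4.92 to 7.45 CPM in EV-treated libraries, 4 were tested, and 1, Cd28, fell (log2 fold change -3.71). Cd28 carried the difference in the sum. Without it, the other 8 summed to 3.15, 7.59 and 3.62 CPM in sham-treated and 4.05, 5.92 and 5.05 CPM in EV-treated libraries, with overlapping groups. No marker of any of these lists that was in the table was at 0 in all 6 libraries.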

How the data were processed

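RNA of 3 sham-treated and 3 EV-treated cultures was sequenced after poly(A) selection, and groups and replicate numbers were taken from the sample titles. The submitters' processing notes name FastQC, cutadapt, Salmon, DESeq2 and the build mm10; versions, annotation and strand setting are not given in the sources used here. The authors deposited estimated counts per gene, which need not be whole, and normalized counts, a signal equal to the rounded count plus 1 over a size factor (97524 of 97524 values within 0.1%). A deposited table of the authors' comparison, with log2 fold changes, p-values, a test score and mean counts, was not used.

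Estimated counts were rounded and tested with edgeR 4.0.16 in R 4.3.3 (TMM, filterByExpr, quasi-likelihood F test, Benjamini-Hochberg over 13498 genes), with the study's limits of an adjusted p under 0.01 and a log2 fold change of at least 1. A standard error is the log2 fold change over the square root of F. On counts simulated for these 13498 genes with a single dispersion of 0.01, edgeR gave 195 of 200 changed genes an adjusted p under 0.01. The fold limit was not applied there. Genes with a wider spread between libraries were not simulated, so this share does not give the power of the comparison. With 3 libraries a group an exact permutation test cannot go below p = 0.1, so none was run. If the replicates were technical, p-values would measure only technical spread.

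The genes described, the lists and the tests were chosen with earlier results of these data known, and the lists were written from textbook knowledge. Genes named are every family gene, the 3 called genes of each list with the largest fold change and at least 10 normalized counts on average, Il4ra, Il13ra1, Stat6, Cebpb, and the 3 genes nearest in profile to each gene (pseudocount 1); other list genes in the text were named after their values were seen. Promoter windows are from RefSeq, loci and transcripts from GENCODE vM21, both GRCm38, which mm10 names too; alignments used Biopython 1.88. The alternatives were other scalings, no filter, DESeq2 1.42.0, limma 3.58.1, the replicate block, another threshold, left-out libraries, and Chil3 and Chil4 summed.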

Additional observations from a re-analysis of the deposited data

How the results depend on the processing

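The log2 fold changes of Retnla, Retnlg, Chil1 and Chil3 kept their direction in all 56 alternatives, and in 55 they moved by less than 1 SD between replicates. The exception was Retnla, at 8.59 without sham replicate 1. The 56 include the sum of Chil3 and Chil4 for each gene, which left the counts of Retnla, Retnlg and Chil1 unchanged and so could not test them. Leaving out each library in turn gave 7.50 to 8.59 for Retnla, -0.42 to -0.21 for Retnlg, -1.69 to -1.498 for Chil1 and 0.60 to 1.055 for Chil3. Scaling by library totals without TMM moved the median of all genes by -0.15 and gave 7.67, -0.48, -1.74 and 0.62. Chil4 did not pass the filter on low counts in the fit of all 6 libraries, and without that filter its log2 fold change was 1.91 (SE 1.49).

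The same-numbered libraries deviated together with small correlations of 0.106, 0.0831 and 0.0417, and each library correlated best with its own number. Libraries of different numbers had correlations from -0.104 to 0.0349. The sample titles do not say whether libraries of the same number share a culture. With the replicate block the log2 fold changes were 7.85, -0.32, -1.59 and 0.80. It called 445 genes higher and 935 lower, beside 419 and 857 without it.

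Leaving out a library gave 364 to 466 genes called higher and 658 to 895 called lower, 7 to 8 and 5 to 6 of the type 2 response genes, 5 to 7 and 1 of the signaling genes, and 2 receptors and partners higher. At an adjusted p under 0.05 with no fold limit, edgeR called 2362 genes higher and 2478 lower, 11 type 2 response genes higher, 11 signaling genes higher and 4 lower, and 4 receptors and partners higher. Signaling genes called lower were 2 under upper-quartile scaling, the DESeq2 Wald test and limma, and 3 under library totals. Of 210 list counts under alternatives, 189 stayed within 1.5 times. Under library totals Ccr3 and Gata2 were not called. Cd207 was not called without the filter, nor when any library other than sham replicate 1 was left out, and single left-out libraries also ended the calls of Il13, Fn1, Marco, Mcpt8, Ltf and Mmp9. Counts of a few reads limit Retnla in sham-treated libraries, Chil4 and Il13.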
